A study of Mus musculus with 19 samples.

Results

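Gata3 encodes GATA3, a zinc-finger transcription factor that binds GATA motifs. The gene was chosen by its name in the RNA rows of the count tables and is 1 of the 28692 genes counted there (ENSMUSG00000015619). GATA3 is needed at several steps of T cell development, from the first commitment of thymic progenitors to the CD4 lineage, and later in T helper type 2 cells and group 2 innate lymphoid cells. In the thymus, CD4+CD8+ (double-positive, DP) cells are signaled through the T cell receptor (TCR) when it binds peptide on MHC. The surface protein CD69 appears soon after such signals, and the calcineurin-NFAT pathway is among those that carry them. GATA3 acts upstream of Zbtb7b, which encodes ThPOK, the factor that fixes the CD4 lineage, whereas Runx3 encodes the factor that fixes the CD8 lineage and represses Zbtb7b and Cd4.

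RNA and surface proteins were counted in the same single thymocytes by CITE-seq, in which antibodies carry DNA tags, with 111 antibodies. All 17 mice were females of 4 to 8 weeks. CD4-fated mice were AND and OT-II, which carry a transgenic TCR that recognizes MHC class II, and MHCI-/- (B2m-/-), with 2 mice of each. CD8-fated mice were F5 and OT-I, which carry a transgenic TCR for MHC class I, and MHCII-/- (H2-Ab1-/-), with 2 mice of each. The 5 wild-type mice were B6. AND and F5 mice were also Rag1-/-, so that these thymi cannot rearrange receptors of their own. MHCI-/- and MHCII-/- mice and wild-type replicates 1 to 3 were sorted for CD5+TCRβ+ cells, and the AND, OT-II, F5 and OT-I mice and wild-type replicates 4 and 5 were not. A transgenic thymus holds 1 rearranged TCR in most of its cells, and its cells can mature at other rates than those of a diverse repertoire. B6 mice were in each of the 3 experiments, AND and F5 mice in the first 2 (replicate 1 in the first, replicate 2 in the second) and MHCI-/- and MHCII-/- mice in the second. The third held all OT-I and OT-II mice and wild-type replicates 4 and 5, so that the OT pair and the experiment cannot be told apart.

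The annotation places Gata3 on the minus strand of chromosome 2, from 9857078 to 9887953 in GRCm38, with 7 transcripts of 6 exons each. The promoter stretch before the RefSeq start used here (build GRCm38.p6, chr2:9878601-9878850, minus strand) is shown because NFAT factors bind the core GGAAA and GATA factors bind GATA, so that both regulators named above have letters that can be looked for. Capitals mark the 2 matches to GGAAA, both read on the other strand as TTTCC.

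Gata3 promoter: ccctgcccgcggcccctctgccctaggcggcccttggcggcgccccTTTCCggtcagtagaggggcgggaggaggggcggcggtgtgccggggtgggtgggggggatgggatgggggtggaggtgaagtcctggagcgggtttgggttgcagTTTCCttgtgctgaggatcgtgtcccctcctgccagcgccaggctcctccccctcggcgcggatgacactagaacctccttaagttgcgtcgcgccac

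The 250 bases held no GATA and no CANNTG (the E-box core) on either strand. Of the 32851 promoter windows of this length in the same table, 55.57% held GGAAA, 53.62% held GATA and 66.22% held CANNTG. A match in these letters is a description of the sequence and not a binding site. The start used lies inside the annotated span, since some transcripts begin further upstream, and no binding was measured here.

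The lanes held 9893333 to 43303999 RNA counts (unique molecular identifiers, UMIs, each 1 captured molecule), and 69246 cells of 85389 barcodes were kept. The median cell held 1495 to 7190 UMIs over the lanes. The lowest were those of wild-type replicate 5 (1541 and 1495), OT-II replicate 2 (2127), 1 lane of wild-type replicate 4 (2804; 3448 in its other lane) and OT-I replicate 2 (3171). Wild-type replicate 5, OT-II replicate 2 and OT-I replicate 2 were each the shallower of the 2 mice of their group in experiment 3 and are called shallow below. In AND replicate 2, 42.08% of barcodes passed the filters. B2m read 46.5 and 49.0 CPM (counts scaled to the same total in each sum) in the MHCI-/- mice and 403 to 1252 CPM in the others, as the labels state. H2-Ab1, summed over the kept cells of each mouse, spread from 2.46 CPM (MHCI-/- replicate 2) to 265.6 CPM (AND replicate 2) where it was not deleted. The values of MHCII-/- replicates 1 and 2 (8.88 and 8.82 CPM) lay inside that spread, so that H2-Ab1 did not check the labels. At most 35 barcode sequences were shared by any 2 lanes.

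Gata3 was a moderately expressed gene. It was counted with 49354 UMIs in the cells kept, in 24230 of 69246 cells (34.99%). Of the cells with Gata3, 54.4% had a single UMI, and the highest cell had 26, so that most statements about single cells rest on few molecules and the levels below are sums over the cells of a mouse, in CPM. Among the other members of the family, Gata1 gave 968 UMIs, Gata2 12 and Gata6 3 in the same cells. Gata4 and Gata5 gave no UMI there. Gata3 therefore carried nearly all GATA family RNA detected in these thymocytes.

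Over all kept cells of a mouse, Gata3 averaged 196 ± 45.5 CPM in AND, 152 ± 31.5 in OT-II, 133 ± 25.6 in MHCI-/-, 127 ± 23.4 in F5, 218 ± 92.4 in OT-I and 83.8 ± 1.80 in MHCII-/- mice (SD, n = 2 each). It averaged 123 ± 28.4 CPM in sorted (n = 3) and 126 ± 54.3 CPM in unsorted B6 mice (n = 2). The OT-I mice (152.8 and 283.4 CPM) lay on both sides of the AND mean. These means mix cells in unequal shares, in which the sort and the Rag1 deficiency enter, and no test was made on them. A pair of RNA clusters high in Gata3, the gamma-delta T-like clusters described below, held 43.8% and 44.9% of the Gata3 UMIs in the OT-I, 45.8% and 9.90% in the AND and 22.7% and 19.9% in the OT-II mice, and at most 2.51% in any other mouse. Without them the OT-I mean was 140 ± 58.7, the AND mean 153 ± 1.23 and the OT-II mean 126 ± 28.3 CPM (SD, n = 2 each).

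Stages were therefore set by thresholds on the antibodies. RNA also entered, since cells of clusters named as other cell types were left out, among them the gamma-delta T-like clusters, which were the highest in Gata3 (541.4 and 876.3 CPM). Cells of cycling, double-negative-like and negative selection-like clusters stayed in. Cycling cells had a median of 11141 UMIs, against 2250 in quiescent DP-like cells, so that they weigh more in a sum. Their part in the gate levels was not tested. DP1 cells were CD4+CD8+CD69-CD127- and DP2 cells CD4+CD8+CD69+CD127-. CD4+CD8lo cells lay below the CD8 threshold (CD4+CD8-CD69+CD127-). No lower bound was set, so that this gate does not part CD8-low cells from cells without CD8. DP3 cells were CD4+CD8+CD69+CD127+TCRβ+, a gate meant for later cells, among them cells on the way to the CD8 lineage. In the unsorted wild-type mice it held Rag1 at 485.8 and 1093 CPM, so that it did not hold later cells alone. The semimature (SM) single-positive gates were CD69+CD127+TCRβ+ and the mature (Mat) ones CD69-CD127+TCRβ+. CD127 is the receptor chain for interleukin-7, which rises late in positive selection. A mouse entered a gate with at least 20 cells.

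In wild-type mice Gata3 stood at 160.6, 172.2, 105.2, 73.1 and 127.5 CPM in DP1 (replicates 1 to 5) and at 305.0, 264.8, 297.6, 121.4 and 221.4 CPM in DP2. Every one of the 5 mice was higher in DP2, while replicate 4 was the lowest in both gates. The change within mice was 0.85 ± 0.18 (log2 fold change ± SE; edgeR quasi-likelihood test with the mouse as a block, Benjamini-Hochberg adjusted p = 5.52e-04), in a comparison in which 24% of all genes tested were called at an adjusted p under 0.05, 11.3% as higher and 12.7% as lower.

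On the CD4 side the level was lowest in mature cells. In CD4+CD8lo cells it read 140.7, 144.6, 158.4 and 230.8 CPM in replicates 2 to 5, lower than in DP2 in replicates 2 and 3 and higher in replicates 4 and 5, and the change from DP2 was -0.32 ± 0.24 (edgeR adjusted p = 0.414; 16.4% of genes called). CD4 SM cells held 132 ± 37.5 CPM and CD4 Mat cells 75.5 ± 28.3 CPM (SD, n = 5). All 5 mice were lower in CD4 Mat than in CD4 SM, by -0.77 ± 0.21 (edgeR adjusted p = 0.0134; 10.4% called); without sorted B6 replicate 1 the adjusted p was 0.0858.

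The lowest levels were on the CD8 side. Wild-type CD8 SM cells read 40.0, 26.97, 15.99, 16.97 and 58.0 CPM, against 169.8, 136.4, 96.9, 200.8 and 324.6 CPM in DP3 cells of the same mice. The groups did not overlap, and the fall was -2.47 ± 0.26 (edgeR adjusted p = 2.67e-09; 23.5% called, 12.3% higher and 11.2% lower). From CD8 SM to CD8 Mat (44.2 ± 23.7 CPM, SD, n = 5) the change was 0.45 ± 0.34 (edgeR adjusted p = 0.721; 1.17% called). Between the lineages, wild-type CD4 SM exceeded CD8 SM by 2.09 ± 0.26 (edgeR adjusted p = 1.19e-07; 13.3% called, 6.52% higher and 6.77% lower) and CD4 Mat exceeded CD8 Mat by 0.87 ± 0.29 (edgeR adjusted p = 0.0427; 10.9% called). The last call was lost without any 1 of 4 of the 5 mice.

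The order of the wild-type gate means was DP2 (242 CPM), DP3 (186), CD4+CD8lo (169), CD4 SM (132), DP1 (128), DN (CD4-CD8-, 107), CD4 Mat (75.5), CD8 Mat (44.2) and CD8 SM (31.6). Neighbors in that order overlapped between mice, and the order was not the same in sorted and unsorted mice. Sorted mice averaged 289 CPM in DP2, 146 in DP1, 143 in CD4+CD8lo and 134 in DP3, whereas unsorted mice averaged 263 CPM in DP3, 195 in CD4+CD8lo, 171.4 in DP2 and 100.3 in DP1 (n = 3 and 2, with 2 sorted mice in CD4+CD8lo). The gates of the unsorted mice also held more preselection RNA. The summed level of 6 markers of quiescent DP cells (Rag1, Rag2, Arpp21, Aqp11, Dntt and Ptcra) was 387.2 to 441.5 CPM in sorted and 4665.5 and 4376.5 CPM in unsorted DP2 cells, and 102.5 to 136.4 against 1847.0 and 2202.7 CPM in DP3, with at least 5 of the 6 detected in each mouse, and their part in the levels was not tested. With cells of the quiescent DP-like clusters left out, the change from DP1 to DP2 was 0.83 (edgeR adjusted p = 1.70e-04) and that from DP3 to CD8 SM -2.57 (adjusted p = 1.91e-10). Only clusters named so were left out, and unnamed clusters with markers closest to quiescent DP cells stayed in. DP3 and CD4+CD8lo, for example, differed by 0.11 ± 0.25 (edgeR adjusted p = 0.928; 4.4% called). From CD4+CD8lo to CD4 SM the change was -0.28 ± 0.24 in wild-type (edgeR adjusted p = 0.864; 0.116% called), -0.14 ± 0.16 in CD4-fated (adjusted p = 1.00; 0.011% called) and 0.087 ± 0.36 in CD8-fated mice (adjusted p = 1.00; 0.00996% called). A lower value in a gate can come from fewer Gata3 molecules per cell or from a different mix of cells within the gate, which sums cannot tell apart.

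**Figure D1:**
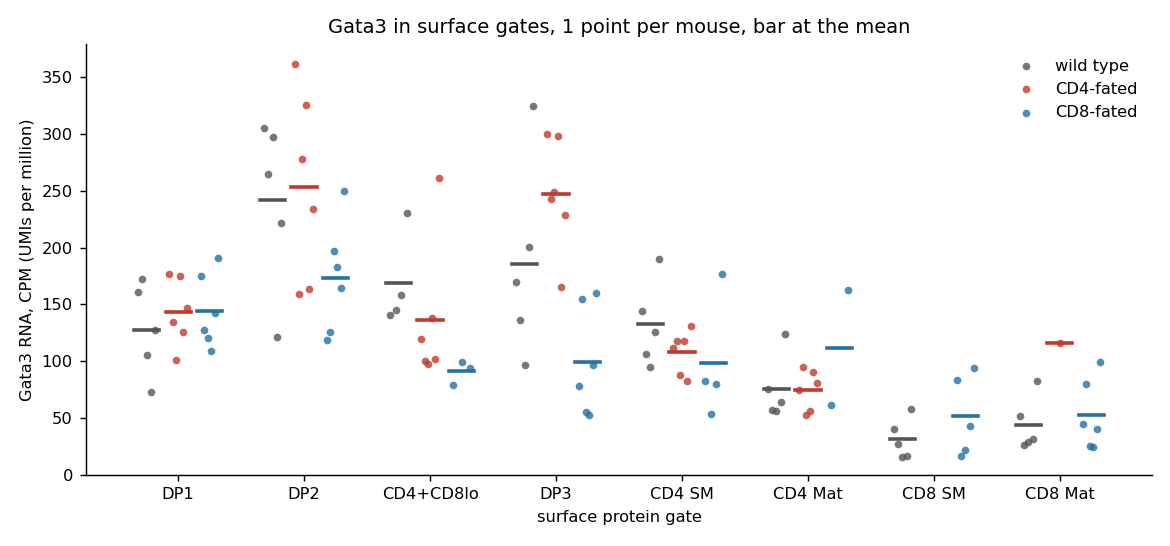
Gata3 RNA in CPM on the vertical axis in 8 antibody gates on the horizontal axis, with 1 point per mouse, colored as wild type, CD4-fated or CD8-fated, and a bar at the mean of each group. The wild-type mean is highest in DP2 (242 CPM) and lowest in CD8 SM (31.6 CPM), and in DP3 the CD4-fated points (165.1 to 300.0 CPM) lie above the CD8-fated ones (52.8 to 160.4 CPM).

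The wild-type rise from DP1 to DP2 went together with the genes of the TCR response. These gates were parted by CD69 protein, which appears soon after TCR signals, so that a rise of such genes is partly built in. Of the 12 genes of a TCR signal response list, 11 were tested and 11 rose, with a median of 2.07 next to 0.01 over all genes. Among them were Nr4a3 (4.16 ± 0.47, edgeR adjusted p = 3.42e-08) and Nr4a1 (2.83 ± 0.34), which encode orphan nuclear receptors, Itm2a (3.01 ± 0.34), a membrane protein gene induced during positive selection, and Cd69 (2.31 ± 0.28), whose protein was used to part these gates, so that its rise is built in. Of 12 calcineurin-NFAT genes, 3 rose and 1 fell (median 0.13), beside 11.3% higher and 12.7% lower over all genes. Nfatc1, the NFAT gene that responds to its own pathway, rose by 1.36 ± 0.21, Ppp3ca (a calcineurin catalytic subunit) by 0.49 ± 0.16 and Cabin1 (a calcineurin inhibitor) by 0.37 ± 0.11, and Nfatc3 changed by -0.65 ± 0.17.

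Of 17 factors that act upstream of GATA3 or beside it, 8 rose and 2 fell between DP1 and DP2 in wild-type mice (median 0.11 against 0.01 over all genes, of which 24% were called). Lef1, an HMG-box factor of early T cells, rose by 1.46 ± 0.15, Id2, an inhibitor of E proteins, by 2.55 ± 0.36, Tox, which CD4 lineage cells need to develop, by 1.58 ± 0.24, and Ets1 by 0.58 ± 0.09. Of 12 CD4 lineage genes 8 rose (median 1.54), led by Cd40lg (3.96 ± 0.51), Cd28 (1.27 ± 0.18), Ccr4 (2.24 ± 0.35) and Icos (1.49 ± 0.26), and Zbtb7b itself rose by 1.91 ± 0.56 (edgeR adjusted p = 0.0099). Of 10 CD8 lineage genes 8 were tested. Runx3 rose by 0.91 ± 0.26, while Cd8a and Cd8b1 changed by -0.91 ± 0.27 and -0.87 ± 0.28. Of 10 genes of T helper 2 and group 2 innate cells, 4 were tested and 3 rose, namely Il17rb (1.45 ± 0.33), Il4ra (0.59 ± 0.16) and Ccr8 (2.59 ± 0.89).

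Zbtb7b rose further on the CD4 side. From DP2 to CD4+CD8lo in wild-type mice Zbtb7b rose by 4.38 ± 0.39 (edgeR adjusted p = 3.93e-11), from 6.42 ± 5.57 to 78.3 ± 17.7 CPM (SD, n = 5 and 4), while Gata3 did not pass the test. The difference between the 2 genes was not tested. From DP3 to CD8 SM, where Gata3 fell, Zbtb7b changed by -3.45 ± 0.65 and Runx3 by 1.18 ± 0.19, both called. In that step 12 of the 17 upstream and partner factors fell and none rose (median -0.89 against -0.03 over all genes, of which 11.2% were lower and 12.3% higher), with Satb1 (-1.59 ± 0.10), Bcl11b (-1.098 ± 0.09), Tcf7 (-0.97 ± 0.10) and Ets1 (-0.89 ± 0.10) leading by adjusted p. These encode chromatin organizers and factors of T cell identity.

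The same within-mouse comparisons were made in the lineage-restricted mice. In CD4-fated mice Gata3 rose from DP1 to DP2 in 6 of 6 mice, by 0.80 ± 0.14 (edgeR adjusted p = 6.49e-05; 24% called). It fell from DP2 to CD4+CD8lo by -0.90 ± 0.16 (edgeR adjusted p = 5.03e-05; 21.6% called), and DP3 stood above CD4+CD8lo by 0.89 ± 0.17 (edgeR adjusted p = 2.05e-04; 11.6% called). Zbtb7b rose from DP1 to DP2 in these mice by 4.30 ± 0.45, to 28.3 ± 19.6 CPM (SD, n = 6), and DP3 held 63.6 ± 16.9 CPM of it. From CD4 SM (108 ± 19.0 CPM of Gata3) to CD4 Mat (75.0 ± 17.5 CPM) the change was -0.47 ± 0.16 (edgeR adjusted p = 0.0688; 5.52% called).

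In CD8-fated mice DP1 held 144 ± 32.3 CPM and DP2 173 ± 48.7 CPM of Gata3 (SD, n = 6), a change of 0.31 ± 0.19 (edgeR adjusted p = 0.244; 28.1% called). The level was higher in DP2 in all 4 OT-I and MHCII-/- mice, whereas F5 mice read 175.3 and 127.5 CPM in DP1 and 118.8 and 125.9 CPM in DP2. The difference between the fates in the DP1 to DP2 change of Gata3 was 0.52 ± 0.22 (edgeR unadjusted p = 0.0245, adjusted p = 1.00), which did not pass the test. From DP3 to CD8 SM Gata3 fell by -1.05 ± 0.24 (edgeR adjusted p = 0.00217; 19.4% called).

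Between the fates, DP1 cells did not separate. The CD4-fated mice read 176.7 and 134.1 (AND), 125.4 and 147.1 (OT-II) and 101.4 and 174.7 CPM (MHCI-/-), and the CD8-fated mice 175.3 and 127.5 (F5), 142.4 and 190.6 (OT-I) and 120.1 and 109.2 CPM (MHCII-/-). The log2 difference, CD4-fated over CD8-fated fitted with the genotype family as a term (AND with F5, OT-II with OT-I, MHCI-/- with MHCII-/-), was 0.05 ± 0.17 (edgeR adjusted p = 1.00; 0.0317% of genes called).

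In DP2 the CD4-fated mice read 361.9 and 159.3 (AND), 163.8 and 233.7 (OT-II) and 277.7 and 325.3 CPM (MHCI-/-), and the CD8-fated mice 118.8 and 125.9 (F5), 164.5 and 250.1 (OT-I) and 196.8 and 183.2 CPM (MHCII-/-). The groups overlapped, through the OT mice and AND replicate 2. The quiescent DP markers summed to 1234.6 CPM in AND replicate 2 and to 2028.7 and 1830.1 CPM in the OT-II mice, against 261.2 to 419.7 CPM in the other 3 CD4-fated and 109.6 to 482.9 CPM in the CD8-fated mice. AND replicate 2 and the OT-II mice had the lowest Gata3 of their fate. Among CD8-fated mice the 2 highest marker sums were those of OT-I replicate 2 (482.9 CPM) and F5 replicate 2 (398.2 CPM), which had the highest and the second lowest Gata3. The part of preselection RNA in these Gata3 levels was not tested. The difference in Gata3 between the fates was 0.54 ± 0.23 (edgeR adjusted p = 0.925; 0.0736% called). It was 0.55 (adjusted p = 0.903) without cells of the clusters named quiescent DP-like, while unnamed clusters closest to quiescent DP cells stayed in. Runx3 was already lower in CD4-fated DP2 cells (-1.56 ± 0.20, edgeR adjusted p = 0.00324), as was Nkg7, a granule protein gene of cytotoxic cells (-2.81 ± 0.48), whereas Zbtb7b (2.42 ± 0.66, adjusted p = 0.339) and Cd69 (0.41 ± 0.26, adjusted p = 1.00) did not pass.

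DP3 was the gate in which Gata3 differed between the fates. In the study's own order, cells of CD8-fated mice returned to a DP phase, named DP3, and those of CD4-fated mice did not. The cells of this gate therefore need not be at the same stage in CD4-fated and CD8-fated mice. CD4-fated mice read 300.0 and 243.0 (AND), 165.1 and 228.4 (OT-II) and 249.1 and 298.6 CPM (MHCI-/-), and CD8-fated mice 77.8 and 154.6 (F5), 96.8 and 160.4 (OT-I) and 55.6 and 52.8 CPM (MHCII-/-). Every CD4-fated mouse lay above every CD8-fated one, by a narrow gap between OT-II replicate 1 and OT-I replicate 2. The difference was 1.33 ± 0.28 (edgeR adjusted p = 0.0389), and Gata3 was 1 of 38 genes called of 7935 (0.479%, with 0.252% higher and 0.227% lower). The call was lost when any 1 of 7 of the 12 mice was left out (log2 1.15 to 1.56) and in 7 of 16 other settings. Within families the log2 ratio was 2.34 in the MHC-deficient, 1.22 in the AND and F5 and 0.61 in the OT-II and OT-I mice.

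The DP3 gate held few cells in some mice, with 43 and 172 cells in AND, 264 and 121 in OT-II, 139 and 135 in MHCI-/-, 25 and 88 in F5, 401 and 450 in OT-I and 457 and 738 in MHCII-/- mice. It also held unequal amounts of preselection RNA. The summed level of the 6 quiescent DP markers ranged from 101.5 to 947.7 CPM in CD4-fated mice and from 76.0 to 246.3 CPM in CD8-fated mice, with at least 3 of the 6 detected in each mouse. Rag1 was at 0 and 20.9 CPM in AND, 99.0 and 411.1 in OT-II, 9.7 and 9.6 in MHCI-/-, 0 and 0 in F5, 2.2 and 17.4 in OT-I and 15.7 and 7.7 in MHCII-/- mice. AND and F5 mice are Rag1-/-, and Rag1 read 10.7 to 61.9 CPM there in DP1, against 238 to 2417 CPM in the DP1 cells of the other mice, so that neither Rag1 nor the marker sum measures preselection cells alike in these 2 genotypes and the others. With cells of the clusters named quiescent DP-like left out, the difference in Gata3 was 1.35 (edgeR adjusted p = 0.0379). Unnamed clusters with markers closest to quiescent DP cells stayed in, among them clusters with 2941, 1223 and 802 CD4-fated cells. The larger clusters left out held 556 and 135 CD4-fated cells. The part of preselection RNA in the difference was therefore not tested by this setting.

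Beside Gata3 in DP3, Zbtb7b was higher in CD4-fated mice by 3.88 ± 0.49 (edgeR adjusted p = 9.17e-04) and Runx3 lower (-1.94 ± 0.25, adjusted p = 9.71e-04), while Cd69 did not pass (0.97 ± 0.24, adjusted p = 0.0897). Beside the 0.252% of all genes that were higher and 0.227% lower in this gate, 2 of 8 CD4 lineage genes tested were higher, Zbtb7b and Cd4 (1.37 ± 0.26), with a list median of 0.65 against 0.01 over all genes. Of 5 CD8 lineage genes tested, 2 were lower, Runx3 and Nkg7 (-2.75 ± 0.47), with a median of -1.65. Of 10 TCR signal genes tested, 2 were higher, Itm2a (1.37 ± 0.28) and Cd5 (0.96 ± 0.20), the gene of a surface protein whose level follows TCR signal strength.

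In the CD4+CD8lo gate Gata3 averaged 136 ± 63.1 CPM in 6 CD4-fated and 91.0 ± 10.5 CPM in the 3 CD8-fated mice with enough cells, and the difference was 0.71 ± 0.33 (SE; edgeR adjusted p = 0.912; 0.0718% called). In CD4 SM it was 0.26 ± 0.31 (edgeR adjusted p = 0.932; 1.17% called), although Zbtb7b was higher there by 1.51 ± 0.27 (adjusted p = 0.0125) and Runx3 lower (-1.38 ± 0.20, adjusted p = 0.00438). In both gates the Gata3 levels of CD8-fated cells overlapped those of CD4-fated cells. In DN cells the difference was -0.25 ± 0.47 (edgeR adjusted p = 1.00; 0.659% called), and 0.43 with the other cell types kept in the gate.

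The single-positive cells of each fate were compared with each other as well. CD4 SM cells of CD4-fated mice held 108 ± 19.0 CPM of Gata3 and CD8 SM cells of CD8-fated mice 51.7 ± 35.3 CPM (SD, n = 6 and 5), a difference of 1.37 ± 0.33 (edgeR adjusted p = 0.0167; 11.3% called, 5.72% higher and 5.58% lower), which was lost when either MHCII-/- mouse was left out (log2 down to 1.12). The 2 MHCII-/- mice read 16.7 and 21.7 CPM in CD8 SM, whereas the shallow OT-I replicate 2 read 93.7 and F5 replicate 2 83.7 CPM. Within families the log2 ratio was 2.42 for the MHC-deficient, 0.65 for the OT and 0.46 for the AND and F5 mice. Between CD4 Mat and CD8 Mat cells the difference was 0.71 ± 0.23 (edgeR adjusted p = 0.0566; 12.6% called). With the replicate number as a block within families it was 0.80 and passed (adjusted p = 0.00916).

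In the same contrast of semimature cells Zbtb7b differed by 7.17 ± 0.26 (edgeR adjusted p = 9.22e-10) and Runx3 by -2.17 ± 0.22 (adjusted p = 3.00e-05). Of the 17 upstream and partner factors 8 were higher in CD4 SM and none lower (median 0.39 against 0.02 over all genes, of which 5.72% were higher and 5.58% lower). Runx1, which encodes a paralog of Runx3, differed by 1.60 ± 0.20, Satb1 by 0.89 ± 0.17, Bcl11b by 0.72 ± 0.15 and Ets1 by 0.69 ± 0.15. The same contrast within wild-type mice also gave 8 of 17 higher (median 0.43 against 0.01 over all genes, of which 6.52% were higher), led by Runx1 (1.65 ± 0.16). Of the T helper 2 and innate genes 4 were tested, and Ccr8 (2.39 ± 0.51) and Il4ra, the receptor chain for interleukin-4 (0.64 ± 0.20), were higher in CD4 SM.

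Development was also read along a continuous order. Cells of 9 RNA clusters from signaled DP to mature cells were ordered by diffusion pseudotime, with Gata3, Zbtb7b, Cd69, Runx3, Cd4, Cd8a and Cd8b1 kept out of the features, and cut into 10 bins of equal cell number. The order holds 9385 wild-type, 8423 CD4-fated and 13211 CD8-fated cells. Before binning, 548 cells of CD4-fated or CD8-fated mice on the branch of the other lineage were left out. No wild-type cells were left out this way, and an alternative kept the 548 cells. Genes correlated with Gata3 stayed among the features, so that part of a change along the order is built into it. How far this touches comparisons between fates within a bin was not tested, and the cells of a bin can still differ in maturity.

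Wild-type mice held Gata3 at 334 ± 120, 390 ± 66.1 and 406 ± 71.5 CPM in bins 1 to 3 (SD, n = 5). The level then stepped down to 288 ± 47.5 in bin 4, 232 ± 57.0 in bin 5 and 103 ± 31.8 in bin 6, and lay between 62.0 and 71.9 CPM in bins 7 to 10. CD4-fated mice ran close to this course, with 287 ± 112 CPM in bin 4 (n = 6) and 226 ± 48.7 CPM in bin 5 (n = 5). CD8-fated mice had lower means from the start, with 274 ± 107, 288 ± 110 and 219 ± 107 CPM in bins 1 to 3 (n = 6), where the F5 mice read 78.1 and 109.0 CPM in bin 3. Their genotypes differed in these bins. MHCII-/- mice read 443 and 349 CPM in bin 1 and 395 and 366 CPM in bin 2. The F5 mice read 205 and 186, then 179 and 165 CPM, and the OT-I mice 174 and 284, then 225 and 400 CPM. Bin 1 held 1008 and 1402 cells of the F5 mice and 23 to 87 cells of each other CD8-fated mouse. In bin 3 OT-II replicate 1 (93.8 CPM) lay below both OT-I mice (196.4 and 296.5 CPM). CD8-fated mice held 92.9 ± 44.8 CPM in bin 4, 72.3 ± 42.9 in bin 5 (n = 6) and 23.4 ± 4.90 CPM in bin 10 (n = 4).

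In bin 4 the mice read 335.6 and 345.2 (AND), 378.8 and 368.2 (MHCI-/-) and 106.3 and 189.8 CPM (OT-II), against 44.7 and 56.0 (F5), 97.5 and 88.8 (MHCII-/-) and 98.2 and 172.2 CPM (OT-I). The OT-II and OT-I mice overlapped, with OT-II above OT-I at each replicate number, and the other 2 families did not overlap. The difference was 1.73 ± 0.30 (edgeR adjusted p = 0.00409; 1.48% called). Within families the log2 ratio was 2.76 for AND and F5, 2.00 for the MHC-deficient and 0.13 for the OT mice. Runx3 in this bin read 350.3 and 296.8 CPM in F5, 89.7 and 96.4 in MHCII-/- and 153.2 and 333.4 CPM in OT-I mice. The CD8-fated genotypes therefore need not be at the same stage in this bin, nor at that of the CD4-fated mice.

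The difference was 1.90 ± 0.29 in bin 5 (edgeR adjusted p = 6.47e-04; 4.9% called, 2.57% higher and 2.34% lower) and between 1.26 and 1.52 in bins 6 to 10, with adjusted p-values of 7.65e-05 to 0.00222 and with 5.2%, 5.95%, 5.87%, 8.66% and 23.2% of genes called. These calls held without any 1 mouse in bins 4 to 10. Bins 1 to 3 gave 0.46 ± 0.30, 0.63 ± 0.25 and 0.63 ± 0.34 (edgeR adjusted p of at least 0.997; 0.0285%, 0.0627% and 0.0377% called). When cells were instead ordered by a score of maturation genes, 2 of 10 bins were called, and bins 4 to 8 gave 0.66 to 0.88 (adjusted p = 0.0561 to 0.14). Trajectory groups with under 5% wild-type cells held 4604 cells, and bin 5 without them gave 1.36 (adjusted p = 0.0225).

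**Figure D2:**
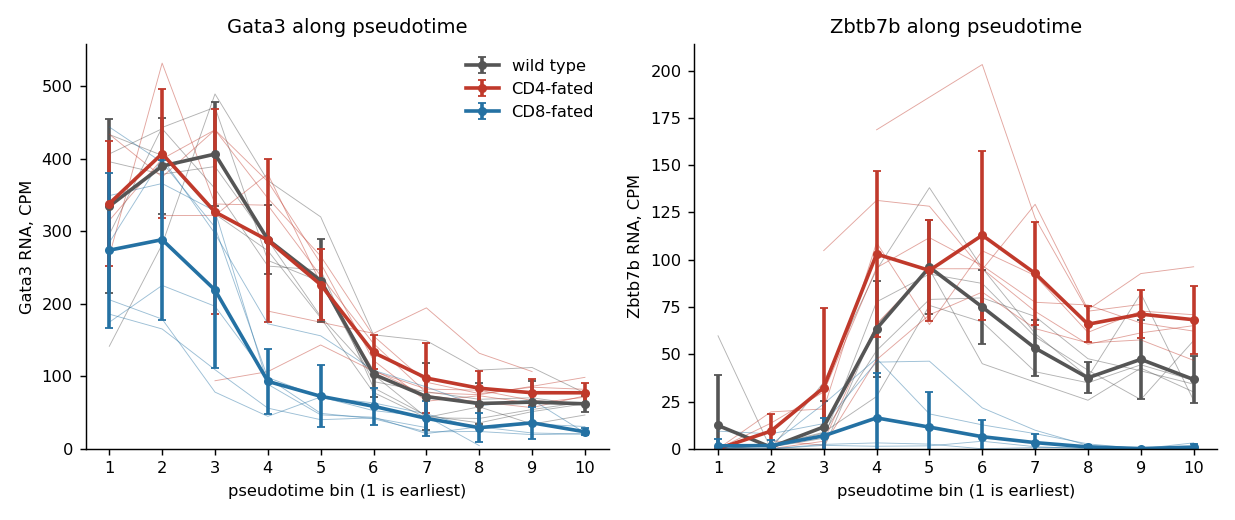
Gata3 and Zbtb7b RNA in CPM on the vertical axes over the 10 pseudotime bins on the horizontal axis, with a thin line for each mouse and a thick line for the mean ± SD of wild-type, CD4-fated and CD8-fated mice. Wild-type Gata3 is highest in bins 1 to 3 (334 to 406 CPM) and CD8-fated Gata3 falls to 92.9 CPM in bin 4, while Zbtb7b appears later and stays low in CD8-fated mice.

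In wild-type mice Gata3 came before Zbtb7b in the order. Gata3 was at its highest in bins 1 to 3 in wild-type mice (median 2), 2 to 7 in CD4-fated mice (median 3.5) and 1 to 2 in CD8-fated mice (median 1.5). Zbtb7b peaked in bins 5 to 6 in wild-type mice. Its peak followed that of Gata3 in 5 of 5 wild-type mice, in 4 of 6 CD4-fated mice and in both OT-I mice. In MHCII-/- mice the highest bin held 4 and 9 UMIs of Zbtb7b, too few to place a peak. The peak of Zbtb7b came earlier in both OT-II mice, which had under 20 cells in the first bins, and the 2 F5 mice held no Zbtb7b UMI in any bin. Peak Zbtb7b was 75.8 to 138.1 CPM in wild-type, 82.9 to 203.2 in CD4-fated, 47.7 and 46.3 in OT-I and 3.12 and 3.99 in MHCII-/- mice.

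In bin 5 Gata3 ranked 47 by p of the 7404 genes tested, of which 2.57% were higher and 2.34% lower. Zbtb7b differed by 4.05 ± 0.47 (edgeR adjusted p = 5.19e-05), Runx3 by -2.29 ± 0.21 (6.65e-06) and Cd69 by 1.03 ± 0.29 (0.0475). Of 10 TCR signal genes tested 5 were higher and 1 lower (median 0.86 against 0.00 over all genes), with Cd5 at 1.72 ± 0.19, Itm2a at 2.95 ± 0.33, Egr2, an immediate early factor, at 1.17 ± 0.24 and Ikzf2 at -1.99. Of 11 calcineurin-NFAT genes 2 were higher, Fkbp1a (1.54 ± 0.22), which encodes the binding protein of FK506, and Ppp3ca (0.83), with a list median of -0.11. Of the 17 upstream and partner factors 3 were higher (Lef1 1.16 ± 0.18, Id2 2.53 ± 0.45 and Tox 0.88 ± 0.20) and Myb was lower (-1.38 ± 0.32). Of 8 CD4 lineage genes 6 were higher (median 1.04), and all 5 CD8 lineage genes tested were lower (median -3.49), Nkg7 by -5.08 ± 0.53.

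Detection in single cells was compared at equal depth, after every cell was thinned to 1500 UMIs, which left out 2452 of 17152 wild-type, 413 of 14377 CD4-fated and 257 of 15624 CD8-fated cells in the gates. In DP3, 30.6% ± 7.18 of CD4-fated and 12.8% ± 6.25 of CD8-fated cells had a Gata3 UMI (SD over mice, n = 6 and 6), and no mouse of one fate reached the other. The difference of 17.8 percentage points gave p = 0.00216 in a two-sided exact permutation test over the 924 splits of the mice, the smallest they can give, and 0.0130 after adjustment over 6 gates. Without thinning the shares were 49.8% and 31.3% (exact permutation test, adjusted p = 0.104). In DP1 the shares were 18.8% and 19.9%, in DP2 26.4% and 20.97%, in CD4+CD8lo 17.5% in both, and in CD4 SM 14.9% and 11.1%, with adjusted p-values of at least 0.519 in the exact permutation tests.

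In wild-type mice 24.7% of DP2, 21.1% of DP3, 4.60% of CD8 SM and 3.09% of CD8 Mat cells had a Gata3 UMI at that depth. The background of free RNA was read from cells that should lack the gene. Of 21 erythrocyte-like cells none had a Gata3 UMI (exact binomial upper limit 16.1%), and of myeloid-like cells 8.11% had one (median depth 3398.5 UMIs before thinning, against 8740 in CD8 SP-like cells). The myeloid-like class joined a cluster at 26.0 CPM with one at 122.6 CPM whose markers were closest to quiescent DP cells, so that these cells set no single background. The mean shares in CD8 SM and CD8 Mat cells lay below the myeloid-like share, with wild-type replicate 5 above it in both gates (9.32% and 8.51%), and whether they exceed free RNA was not tested.

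Cd69 RNA was then used to split the cells of each gate, within mice and at 1500 UMIs per cell. In DP2, cells with a Cd69 UMI held 378 ± 88.5 CPM of Gata3 and cells without one 210 ± 61.6 CPM (SD, n = 12 mice, from 1242 and 4956 cells). All 12 mice were higher in cells with Cd69, and the difference was 0.81 ± 0.10 (edgeR adjusted p = 5.72e-11; 7.37% of genes called, 2.83% higher and 4.54% lower). It was seen in each group, with 398 against 213 CPM in wild-type, 351 against 243 in CD4-fated and 372 against 182 in CD8-fated mice. The mean was 208 CPM in DP2 cells without Cd69 (17 mice), 345 at 1 UMI (11 mice), 414 at 2 (6 mice) and 411 at 3 or more (5 mice). The mice ranged from 92.5 to 362.1, 201.8 to 538.5, 289.9 to 575.8 and 175.4 to 708.3 CPM, so that all steps overlapped. These means are over different mice. Wild-type replicate 2 read 242, 361, 290 and 175 CPM, and MHCI-/- replicate 2 read 271, 376, 462 and 708 CPM.

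In CD4+CD8lo cells Gata3 was at 238 ± 58.5 CPM with Cd69 and 107.3 ± 30.004 CPM without (SD, n = 4 mice, 4 of 4 higher; 1.09 ± 0.27, edgeR adjusted p = 0.00344; 3.57% called), a call that was lost without MHCI-/- replicate 2 (adjusted p = 0.111) and at 1000 UMIs per cell (0.27, adjusted p = 0.86). In CD4 SM cells 200 ± 59.7 CPM stood against 116 ± 31.7 CPM (SD, n = 13 mice, 13 of 13 higher; 0.71 ± 0.11, edgeR adjusted p = 2.72e-08; 5.46% called). In CD8 SM cells the levels were 46.7 and 46.5 CPM in 4 mice, with a difference of -0.15 ± 0.60 (edgeR adjusted p = 0.973; 0.189% called).

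DP3 cells showed both patterns. Over all 12 mice the difference was 0.60 ± 0.12 (edgeR adjusted p = 2.39e-04; 3.96% called), and 10 of 12 mice were higher in cells with Cd69. Wild-type mice read 344 against 194 CPM (4 of 4 higher) and CD4-fated mice 421 against 218 CPM (4 of 4). CD8-fated mice read 93.5 against 86.7 CPM, with 2 of 4 mice higher. Whether these differences differ between the fates was not tested.

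**Figure D3:**
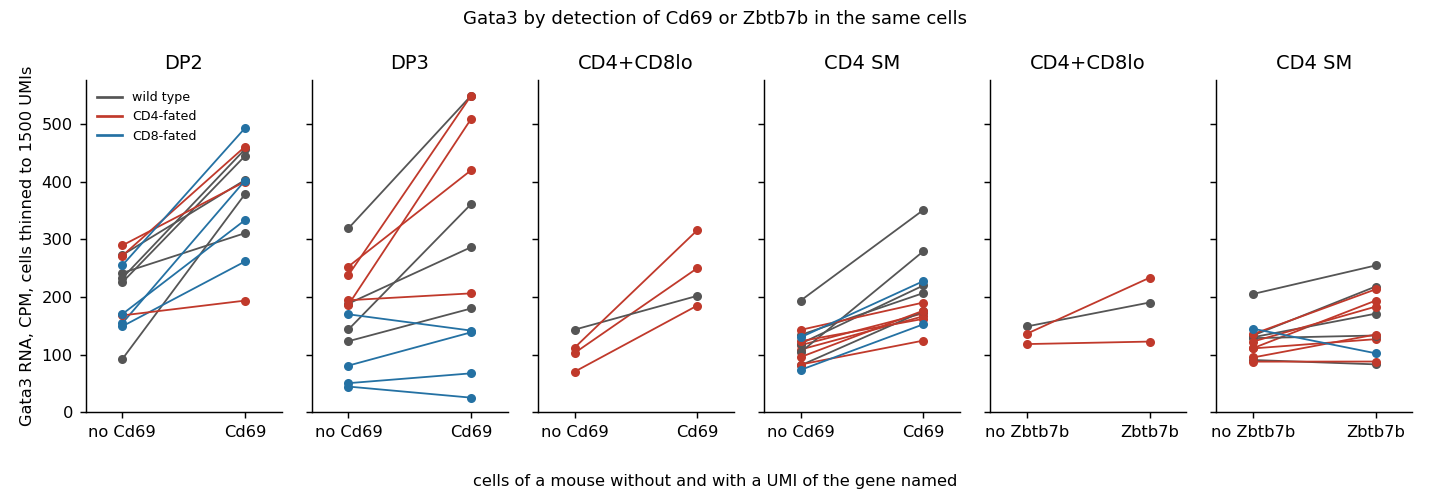
Gata3 RNA in CPM, from cells thinned to 1500 UMIs, on the vertical axis for cells without and with a UMI of Cd69 (the first 4 panels, DP2, DP3, CD4+CD8lo and CD4 SM) or of Zbtb7b (the last 2, CD4+CD8lo and CD4 SM) on the horizontal axis, with a line joining the cells of 1 mouse. In DP2 all 12 lines rise, from a mean of 210 to 378 CPM, and in DP3 the CD8-fated lines stay between 25.6 and 170.1 CPM.

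Cells with Cd69 RNA in DP2 also held less preselection RNA. The 6 quiescent DP markers summed to 579 ± 679 CPM in cells with Cd69 and 1407 ± 1779 CPM in cells without (SD, n = 12), lower with Cd69 in 12 of 12 mice, and all 6 were called lower, Rag1 by -2.11 ± 0.16. In DP3 the sums were 335 ± 387 and 606 ± 854 CPM (n = 12), and 4 of 4 markers tested were lower. Without cells of the clusters named quiescent DP-like the difference in Gata3 was 0.68 in DP2 (edgeR adjusted p = 1.20e-10) and 0.53 in DP3 (adjusted p = 0.00131). Unnamed clusters closest to quiescent DP cells stayed in.

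Genes of the TCR response were higher in the DP2 cells with Cd69. Of 10 TCR signal genes tested, 10 were higher (median 1.46 against -0.04 over all genes, of which 2.83% were higher and 4.54% lower), with Nr4a1 at 2.52 ± 0.12, Egr1 at 2.24 ± 0.11, Egr2 at 2.18 and Dusp2, a phosphatase gene, at 1.36 ± 0.09. Cd69 itself, which made the split, was left out of this test. Nfatc1 was higher (0.97 ± 0.15), Id3, another inhibitor of E proteins, rose by 0.56 ± 0.08, and Runx3 was lower (-0.85 ± 0.20, edgeR adjusted p = 0.00172). Of the 17 upstream and partner factors 4 were higher and 3 lower (median -0.07), beside the same shares over all genes, Tcf12, which encodes an E protein, by -0.66 ± 0.10.

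Zbtb7b detection went less clearly with Gata3. In CD4 SM cells Gata3 was at 159 ± 55.4 CPM in cells with a Zbtb7b UMI and 125 ± 31.4 CPM in cells without (SD, n = 12 mice). The level was higher with Zbtb7b in 10 of 12 mice, but the difference of 0.31 ± 0.12 did not pass (edgeR adjusted p = 0.252; 1.38% called). The two-sided exact sign-flip permutation test on the same mice passed (mean log2 ratio 0.28, adjusted p = 0.0479), and at 1000 UMIs per cell the edgeR difference was -0.089. In CD4+CD8lo cells the levels were 182 and 135 CPM in 3 mice (0.28 ± 0.36, edgeR adjusted p = 0.967). In the few mice of CD4 Mat the direction was the other one, with 36.5 CPM against 71.9 CPM over 5 mice, of which 2 were higher. In DP3 the means were 231 CPM with Zbtb7b and 259 CPM without over 2 CD4-fated mice, of which 1 was higher. Among the genes called in CD4 SM, Itm2a (0.26) and Id2 (0.49) were higher in cells with Zbtb7b and Ikzf2 (-0.78) and Lmo4 (-0.48), which encodes a LIM-domain partner of GATA factors, were lower.

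In cells thinned to 1500 UMIs, both RNAs were seldom read in the same cell. Detection is low at that depth. A Gata3 UMI was read in 58.4% of signaled DP-like cells before thinning and in 33.7% after it. Few cells with both therefore need not mean that the genes are seldom expressed together. In bin 4 of CD4-fated mice, 50% and 25% of cells with a Gata3 UMI also had a Zbtb7b UMI in the OT-II mice, which is 2 of 4 and 1 of 4 such cells, and 7.41% to 16.7% in the other 4 mice. Of cells without Gata3, 13.8% and 29.4% had one in the OT-II mice and 4.59% to 21.2% in the other 4, so that the shares overlapped. In bin 5 the mean shares were 19.1% and 14.3%. In wild-type mice they were 5.86% and 6.06% in bin 4 and 15.1% and 11.02% in bin 5. Cells with both made up 4.51% of bin 4 and 5.28% of bin 5 in CD4-fated mice and 3.69% of bin 5 in wild-type mice. No test was made on these shares.

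Across RNA clusters Gata3 was highest in 2 clusters led by Maf, Blk, Etv5, Sox13 and Tcrg-C4. Classes were named from marker genes, and their levels are a description, since the clusters were made from the same RNA. These clusters are called gamma-delta T-like from a list of 6 markers, of which 4 stood among the 10 leading genes of each, and held 652 ± 177 CPM (SD, n = 6 mice), all of these mice being AND, OT-II or OT-I TCR transgenics. They included 437 and 30 cells of the AND mice (530.0 and 526.1 CPM), which are Rag1-/- and carry an αβ TCR, so that the name cannot hold for those cells. The other mice had at most 6 such cells each. Signaled DP-like cells held 309 ± 41.2 CPM (n = 11), with every mouse between 236 and 364 CPM. DN-like cells followed with 154 ± 66.0 CPM (n = 8) and NKT-like cells with 135 ± 46.6 CPM (n = 6).

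Negative selection-like cells held 118 ± 34.4 CPM (n = 10), Treg-like cells 102 ± 20.2 (n = 10), mature SP-like cells 100 ± 54.3 (n = 8), cycling cells 97.5 ± 42.4 (n = 17) and quiescent DP-like cells 87.2 ± 44.2 CPM (n = 13), and these overlapped. CD8 SP-like cells were lowest at 35.03 ± 22.7 CPM (n = 8), where 7 mice lay between 19.5 and 36.0 CPM and 1 CD4-fated mouse at 89.3 CPM. Unnamed clusters, with 19133 cells, held 167 ± 111 CPM (n = 17). The classes did not draw on the same mice. OT-I replicate 2 had 1785 mature SP-like cells, with Runx3 at 441 CPM, and 2 CD8 SP-like cells, and wild-type replicate 5 had 1442 mature SP-like, no CD8 SP-like and 3 signaled DP-like cells. The mature SP-like class joined a cluster at 85.1 CPM (1874 CD4-fated cells of 1952) with one at 153.5 CPM (1442 wild-type and 1788 CD8-fated cells). In the pseudotime order wild-type replicate 5 had cells in all 10 bins, with Gata3 at 489.0 CPM in bin 3 and 76.7 in bin 10. The name mature need not hold for all of its cells. Among cells thinned to 1500 UMIs, 58.9% of cells in the gamma-delta T-like clusters and 33.7% of signaled DP-like cells had a Gata3 UMI, against 9.13% of quiescent DP-like cells.

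The genes whose pattern was most like that of Gata3 were sought over 24 points, the mean log2(CPM + 1) of each gate in wild-type, CD4-fated and CD8-fated mice, among 7751 genes with a mean of at least 10 CPM. The points share mice and libraries, so the correlations are a description. The 10 highest were Chdh (Pearson r = 0.911), Tmem191c (0.898), Ddx19a (0.896), Ptpn7 (0.887), Sypl (0.879), Eid1 (0.879), Ptpre (0.876), Gnb1 (0.865), Hsbp1 (0.864) and Gng5 (0.864). Without the DN points (21 left) their r lay between 0.866 and 0.933. Of the lists above, Il17rb stood at rank 19 (0.84), Tcf7, the HMG-box factor of T cell identity, at rank 67 (0.80) and Runx1 at rank 150 (0.76), whereas Cd69 was at rank 3112 (0.38), Zbtb7b at rank 3294 (0.36) and Runx3 at rank 7628 (-0.65).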

How the data were processed

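The authors deposited raw UMI counts per gene, antibody and barcode for each lane, made with Cell Ranger 3.1.0 (version from the submitters' processing notes) and its STAR aligner on mm10/GRCm38. The counts were not normalized. Barcodes with over 15% mitochondrial UMIs, under 200 genes, outside 1000 to 10000 protein UMIs or with under 70 proteins were left out (72054 of 85389 passed), as were 2808 called doublets (0.8% per 1000 barcodes, by simulated doublets within each lane). The authors' totalVI model and Slingshot order were not rerun. Leiden clustering (leidenalg 0.10.2 with igraph 0.11.9) was run on 30 principal components of 2000 variable genes with 20 neighbors, into 35 clusters, of which 27 were named from fixed markers. Names are rebuilt and need not match the study's.

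Gates were set by Otsu's threshold on log2(1 + UMIs per 10000 antibody UMIs) of CD4, CD8a, TCRβ, CD69 and CD127 in each experiment, and cells of Treg-, NKT-, gamma-delta T-, B-, myeloid- or erythrocyte-like clusters were left out of them. The CD69 cut lay at 24.6, 23.4 and 11.0 per 10000 in experiments 1, 2 and 3, and the CD127 cut at 6.13, 3.83 and 1.50. A gate of the same name can therefore hold different cells in different experiments. UMIs were summed per mouse and gate or bin. The mouse is the replicate, and 2 lanes of 1 mouse were summed. edgeR 4.0.16 in R 4.3.3 (quasi-likelihood test, TMM scaling, filterByExpr) tested all genes, with Benjamini-Hochberg adjustment over them, at least 20 cells per mouse and at least 3 mice per group. An SE is the size of the log2 fold change over the square root of F. On simulated data in DP3, 62% of 2-fold and 93% of 4-fold changes were recovered among 7935 genes. Intervals cover counting error only. Deviations of mice with the same replicate number correlated at 0.65 to 0.73 in OT-II with OT-I, -0.04 to 0.15 in AND with F5 (whose numbers coincide with the experiment) and -0.03 to 0.35 in MHCI-/- with MHCII-/- mice over DP1, DP2 and DP3, so the numbers were not taken as pairs.

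Named genes were Gata3, Cd69, Zbtb7b and Runx3, at most 4 called members of each list by adjusted p (some further members with values are given), the 10 genes most like Gata3 and the deleted genes. The gene, the lists and the tests were chosen with earlier results of these data known. Alternatives were other thresholds, filters, scaling, DESeq2 1.42.0, thinning depths, single experiments and mice left out in turn.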

Additional observations from a re-analysis of the deposited data

Results flagged for a closer look

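Of 73 groups of 4 to 10 mice, 10 held a Gata3 value far from the rest by Dixon's criterion, where chance flags about 1 in 20 groups. Of these, 9 came from the 3 shallow mice. Wild-type replicate 5 stood apart in CD4 Mat with 124 CPM (others 56.0 to 75.7 CPM), and in its shares of cells with a Gata3 UMI in CD4 Mat (19.0%, others 7.79% to 10.96%), CD8 Mat (8.51%, others 1.43% to 2.14%) and DP3 (34.2%, others 15.1% to 20.5%). OT-II replicate 2 stood apart in CD4+CD8lo (261 CPM, other CD4-fated mice 97.7 to 137.8 CPM) and in bins 7 (194 CPM, others 65.6 to 91.7) and 8 (132 CPM, others 64.6 to 80.8). OT-I replicate 2 stood apart in bins 5 (156 CPM, others 40.1 to 71.4) and 6 (108 CPM, others 41.4 to 63.3). The remaining value was that of OT-I replicate 1 in bin 10 (30.7 CPM, others 20.3 to 22.0). All 10 lay above their groups. The 3 mice were shallow, and wild-type replicate 5 also stood above the other wild-type mice in Rag1, with 182.1 CPM in CD4 Mat (others 1.61 to 20.2), 238.5 in CD8 Mat (1.90 to 20.4) and 1093 in DP3 (3.06 to 485.8). OT-II replicate 2 held 104.5 CPM of Rag1 in CD4+CD8lo (others 0 to 66.1) and 22.6 and 55.4 CPM in bins 7 and 8 (others 0 to 9.79), and OT-I replicate 2 7.41 and 2.71 CPM in bins 5 and 6, within the range of the other CD8-fated mice (0 to 11.8). The part of depth and of preselection RNA in these values was not tested.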

How the results depend on the processing

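Across 53 Gata3 results, 876 alternative values were computed, of which 770 kept the direction and the side of the threshold, 40 kept the direction and lost the call, 13 kept the direction and gained the call, and 53 changed sign. Leaving out the 3 shallow mice, taking a single experiment and leaving out quiescent DP-like clusters or groups with under 5% wild-type cells were chosen after seeing the data. The cause was not tested for any of the changes that follow. All differences are on the log2 scale, CD4-fated minus CD8-fated unless another order is given, with edgeR's adjusted p in parentheses where a call changed.

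In the DP3 gate, the difference between fates was 1.27 (0.132) with no family covariate, 1.18 (0.251) with gate thresholds raised by 0.5, 1.17 (0.075) with doublets kept, 1.27 (0.128) with at least 50 cells per mouse, 1.41 (0.143) without the groups of under 5% wild-type cells, 1.82 (0.0885) in experiment 2 alone and 0.49 (1.00) in experiment 3 alone. Without single mice it ranged from 1.15 to 1.56, and the call was lost without either AND mouse, either MHCI-/- mouse, either MHCII-/- mouse or F5 replicate 1. CD4 SM against CD8 SM gave 1.24 (0.0539) with no family covariate and 0.67 (0.751) in experiment 3 alone, and 1.12 to 1.79 without single mice, with the call lost without either MHCII-/- mouse. CD4 Mat against CD8 Mat passed the threshold with no low-count filter at 0.69 (0.0043), with thresholds raised at 0.77 (0.0136) and without the 3 shallow mice at 0.89 (0.0111), and ranged from 0.60 to 0.89 without single mice, passing without F5 replicate 2 or OT-I replicate 2.

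Small differences changed sign. DP1 gave -0.031 with thresholds lowered by 0.5, -0.018 with other cell types kept, -0.33 in experiment 3 alone and -0.10 to 0.13 without single mice. DP2 gave -0.16 in experiment 3 alone. CD4 SM gave -0.0034 with thresholds lowered and -0.17 in experiment 3 alone. DN gave 0.16 with thresholds raised, 0.43 with other cell types kept, 0.040 with doublets kept, 0.15 with at least 500 protein UMIs, 0.17 without the 3 shallow mice and -1.34 to 0.24 without single mice.

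Along pseudotime, binning by a maturation score in place of diffusion pseudotime gave 0.66 (0.14), 0.81 (0.0897), 0.80 (0.0927), 0.88 (0.0896) and 0.85 (0.0561) in bins 4 to 8, so that 2 of 10 bins passed. Bin 7 gave 1.20 (0.0678) with no family covariate. In experiment 3 alone, bin 4 gave -0.069 and bins 6 to 9 gave 0.57, 1.09, 1.28 and 0.97, none past the threshold, and Cd69 in bin 4 gave -0.27.

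Within mice, DP3 minus CD4+CD8lo in the wild type gave -0.069 with thresholds raised, -0.0094 with thresholds lowered, -0.019 without the shallow mice and -0.019 to 0.19 without single mice. CD4 Mat minus CD8 Mat in the wild type gave 0.85 (0.0688) with scaling by library size, 0.69 (0.216) with thresholds lowered and 0.81 to 0.95 without single mice, with the call lost without any of wild-type replicates 1 to 4, and CD4 Mat minus CD4 SM gave -0.79 to -0.71, with the call lost without wild-type replicate 1. In CD4-fated mice, CD4 Mat minus CD4 SM passed at -0.57 (0.0236) with library size scaling and at -0.48 (0.00178) with no low-count filter, and gave -0.58 to -0.35 without single mice, passing without AND replicate 2 or OT-II replicate 1. In CD8-fated mice, CD4+CD8lo minus DP2 passed at -1.02 (0.0183) with no low-count filter and gave -1.26 to -0.81 without single mice, passing without F5 replicate 2. In the same mice, CD4 SM minus CD4+CD8lo gave -0.095 with thresholds raised, -0.30 without the shallow mice and -0.30 to 0.36 without single mice, and DP3 minus CD4+CD8lo gave -0.19, -0.20 and -0.20 to 0.28. The change from DP2 to CD4+CD8lo compared between fates gave -0.091 with library size scaling, -0.083 with thresholds raised, -0.19 without the shallow mice and -0.080 to 0.26 without single mice.

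Splitting CD4+CD8lo cells by Cd69 gave 0.27 (0.86) at 1000 UMIs, 1.09 with an adjusted exact sign-flip permutation p of 0.156 over 4 mice (which cannot give less than 0.125 before adjustment), and 0.95 to 1.29 without single mice. The Cd69 split of CD8 SM cells gave 0.87 at 2500 UMIs and -0.12 to 0.010 without single mice. The Zbtb7b split of CD4 SM cells gave -0.089 at 1000 UMIs and 0.28 with an adjusted exact sign-flip permutation p of 0.0479. The difference in the share of cells with a Gata3 UMI was 0.98 percentage points in DP1 without the shallow mice and -2.31 to 0.69 without single mice. In CD4+CD8lo it was 6.69 at 1000 UMIs, 1.11 unthinned, 4.28 with thresholds raised and -3.18 to 1.75 without single mice. In DP3 it was 18.4 unthinned (exact permutation, adjusted p = 0.104) and 20.5 with thresholds raised (exact permutation over 4 and 4 mice, adjusted p = 0.0857). It was -0.68 in CD4 SM at 1000 UMIs, and in DN 0.37 with thresholds raised and -6.64 to 2.31 without single mice.

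Replicate numbers did not pair the mice in every family. For AND and F5 they coincide with the experiment. With the replicate block, DP3 gave 1.35 (0.0109) and CD4 Mat against CD8 Mat 0.80 (0.00916), and the genes called between fates went from 38 to 102 in DP3, from 115 to 284 in CD4 SM and from 735 to 1471 in bin 9. Over all alternatives, genes called ranged from 1 to 205 in DP3, from 1 to 315 in CD4 SM, from 2 to 237 around 103 in bin 4, from 145 to 607 around 363 in bin 5 and from 202 to 1907 around 1152 for CD4 SM against CD8 SM. For CD4 Mat against CD8 Mat they ranged from 18 to 1641 around 1142, and in bin 10 from 498 to 2942 around 2102. Gata3 counts in the small DP3 and DN groups of single mice limit the precision of these values.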
